A study of Homo sapiens with 4 samples.

Results

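The Krüppel-like factors (KLF) are zinc-finger transcription factors, and 10 of them were read here across all 4 arrays of the series: KLF2, KLF3, KLF4, KLF5, KLF6, KLF7, KLF9, KLF10, KLF11 and KLF13. They were taken as every probe set whose only gene in the platform annotation is one of these symbols or an alias of it. This gave 32 probe sets of 54675, standing for 10 of 19740 named genes. The 10 genes were chosen with their values on these arrays known, so their levels and ratios are a description of the arrays.

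The cells were CL1-0 and CL1-5, human lung adenocarcinoma lines of common origin, of which CL1-5 was selected from CL1-0 for invasiveness. The 4 groups, each read on 1 array, were CL1-0 made to express PSAT1, CL1-0 given the control vector, CL1-5 given a short hairpin (shRNA) that targets PSAT1, and CL1-5 given a non-silencing shRNA. All 4 had been stably transduced and selected for 2 weeks in puromycin, so the controls also carried a vector and had been through selection. The labels do not say whether the transduced cells were clones or pools. PSAT1 is the transaminase of serine synthesis, and the design asks how expression differs when it is raised in CL1-0 or lowered in CL1-5. No group was replicated, so no value has an error or a test, and a difference between 2 arrays also holds any difference in culture, selection and labelling.

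KLF proteins bind GC-rich and CACCC sequences through zinc fingers at their C-terminal end, and their N-terminal parts differ and set whether a member activates or represses. KLF2, KLF4, KLF5, KLF6 and KLF7 are grouped as members that recruit acetyltransferases such as p300, although KLF4 also represses. KLF3 recruits the corepressor CtBP, and KLF9, KLF10, KLF11 and KLF13 recruit the corepressor Sin3A. In epithelia KLF4 is linked to growth arrest and differentiation and KLF5 to proliferation, and both bind many of the same sites.

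A floor at the pooled median signal, 49.0, stands in for detection calls, and 48.0% to 52.0% of probe sets lay above it on each array. PSAT1 read 5494 with its vector against 4214 with the control vector in CL1-0, a difference under 2-fold. It read 143 with its hairpin against 1760.0 with the non-silencing hairpin in CL1-5. Of the labelled cell type, the type II alveolar cell, 6 of 8 genes were above the floor on every array by their brightest probe sets. By that rule 13187 of all 19740 named genes were above it on at least 1 array of the CL1-0 pair. Passing the floor alone therefore does not mark the type. SFTPD and SLC34A2 were below the floor on all 4 arrays, and SFTPC, specific to that cell, read between 131.5 and 151. Of 9 epithelial markers, EPCAM, CDH1, KRT19 and ESRP1 were below the floor on every array. KRT18, KRT8, KRT7 and ELF3 were above it on every array, and CLDN4 on all but the CL1-0 PSAT1 array. In whole-culture RNA, fewer cells of a type and less RNA per cell cannot be told apart.

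The regulatory sequence just upstream of the members is shown because KLF proteins themselves bind GC-rich motifs such as those found there. Upstream windows of 250 bases were available from RefSeq (GRCh38.p14) for 8 of the 10 genes, at 13 annotated start sites. KLF3 and KLF10 had no entry. The windows below are those of KLF4 and KLF5, the members past 2-fold in CL1-0, and of KLF6 and KLF9, which differed between the lines in opposite directions. They are written 5′ to 3′ in the direction of the gene and end at the base before the start site. Capitals mark matches to a GC box (GGGCGG) or a TATA box (TATAAA) on either strand.
KLF4, chr9:107489770-107490019, minus strand: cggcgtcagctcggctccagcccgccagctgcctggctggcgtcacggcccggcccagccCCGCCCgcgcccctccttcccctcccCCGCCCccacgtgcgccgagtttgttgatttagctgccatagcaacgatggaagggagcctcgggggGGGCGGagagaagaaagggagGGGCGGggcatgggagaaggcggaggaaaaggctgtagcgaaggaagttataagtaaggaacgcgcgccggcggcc
KLF5 upstream start, chr13:73054726-73054975, plus strand: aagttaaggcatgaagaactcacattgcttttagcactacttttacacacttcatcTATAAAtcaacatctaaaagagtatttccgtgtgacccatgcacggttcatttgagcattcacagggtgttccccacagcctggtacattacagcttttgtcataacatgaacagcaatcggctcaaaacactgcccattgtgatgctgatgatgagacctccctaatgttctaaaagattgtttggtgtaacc
KLF5 downstream start, chr13:73058755-73059004, plus strand: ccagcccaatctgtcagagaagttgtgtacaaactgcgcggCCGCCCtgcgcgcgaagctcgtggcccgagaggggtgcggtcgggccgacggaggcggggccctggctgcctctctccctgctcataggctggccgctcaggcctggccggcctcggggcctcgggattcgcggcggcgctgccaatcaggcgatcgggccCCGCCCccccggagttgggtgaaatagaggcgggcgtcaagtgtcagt
KLF6, chr10:3785210-3785459, minus strand: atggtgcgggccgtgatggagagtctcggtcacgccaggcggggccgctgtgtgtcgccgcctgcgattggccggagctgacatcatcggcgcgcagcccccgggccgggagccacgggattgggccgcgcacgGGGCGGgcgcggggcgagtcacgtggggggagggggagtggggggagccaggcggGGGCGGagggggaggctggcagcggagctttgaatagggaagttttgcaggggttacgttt
KLF9, chr9:70414658-70414907, minus strand: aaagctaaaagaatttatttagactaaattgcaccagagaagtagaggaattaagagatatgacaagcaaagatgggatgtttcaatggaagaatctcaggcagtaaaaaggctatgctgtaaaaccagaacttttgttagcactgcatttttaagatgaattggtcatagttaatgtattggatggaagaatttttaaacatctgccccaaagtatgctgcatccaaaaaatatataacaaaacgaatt

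The KLF4 window held 4 GC boxes at 69.2% GC, and the window of the downstream KLF5 start held 2 at 70.8% GC. The upstream KLF5 start lay in sequence of 40.8% GC with no GC box and 1 TATA box. KLF6 had 2 GC boxes at 72.4% GC, whereas the KLF9 window held no match to any motif searched and was 32.4% GC. Over all members, 8 of 13 windows held a GC box, against 42.6% of the 35116 windows of the same length in the reference. The median GC content was 70.8% in the member windows and 58.0% in all windows, and the shares were not compared at equal GC. Some members gave several of the 13 windows. The CACCC box (CCACCC) occurred in 2 of 13, against 31.3% of all windows. The cAMP response element (TGACGTCA) occurred in 1 of 13, at the second KLF11 start, against 1.65% of all windows, the TATA box in 1 of 13 against 10.7%, and the AP-1 site (TGANTCA) in 0 of 13 against 6.57%. Both strands were searched, and in the KLF13 window the CACCC box overlapped a GC box. These are matches of letters, not measured binding.

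**Figure D1:**
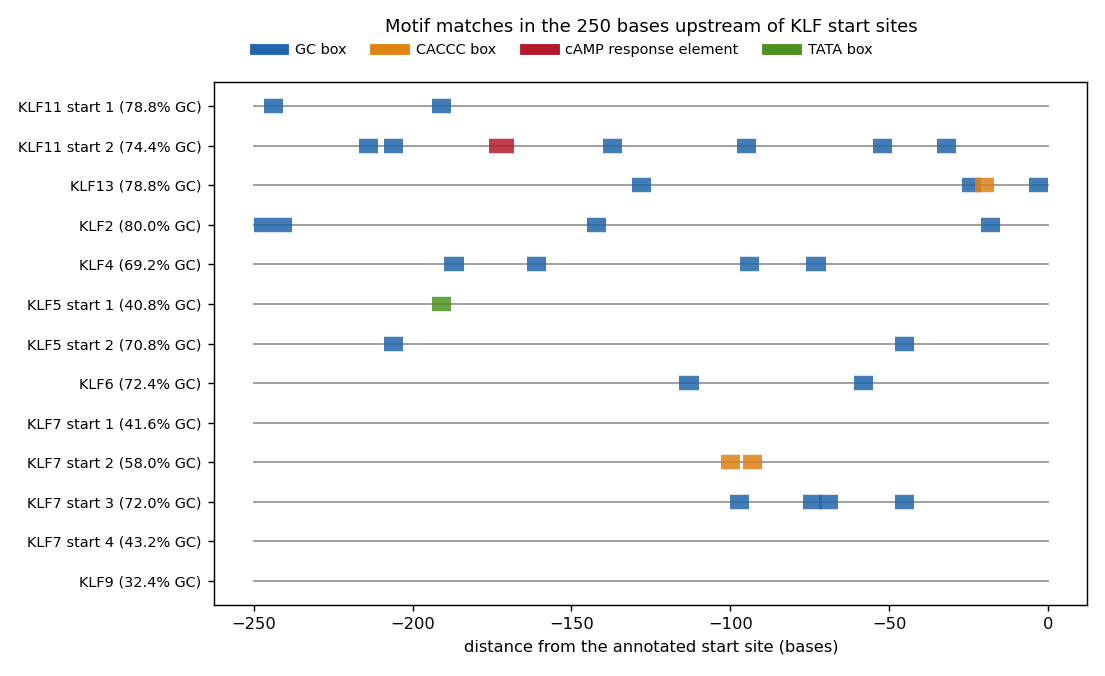
Each row is the 250 bases upstream of 1 annotated start site of a KLF gene, the x axis gives the distance from that start in bases, and coloured blocks are motif matches on either strand. The second KLF11 start has 6 GC boxes and the KLF4 start 4, while the KLF9 start and 2 of the 4 KLF7 starts have no match.

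Of the 32 probe sets, 14 were above the floor on all 4 arrays, 16 on 1 to 3 arrays and 2, one each of KLF7 and KLF13, on none. Each gene is described first by its brightest probe set. The words "rose", "fell", "higher" and "lower" are kept for ratios of at least 2-fold, which is a rule of size and not a test. Where 1 of the 2 arrays was at the floor the fold is a lower bound, and where both were, the gene was not measured in that pair. Levels are compared between arrays for 1 probe set and never between probe sets, since probes differ in brightness.

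**Figure D2:**
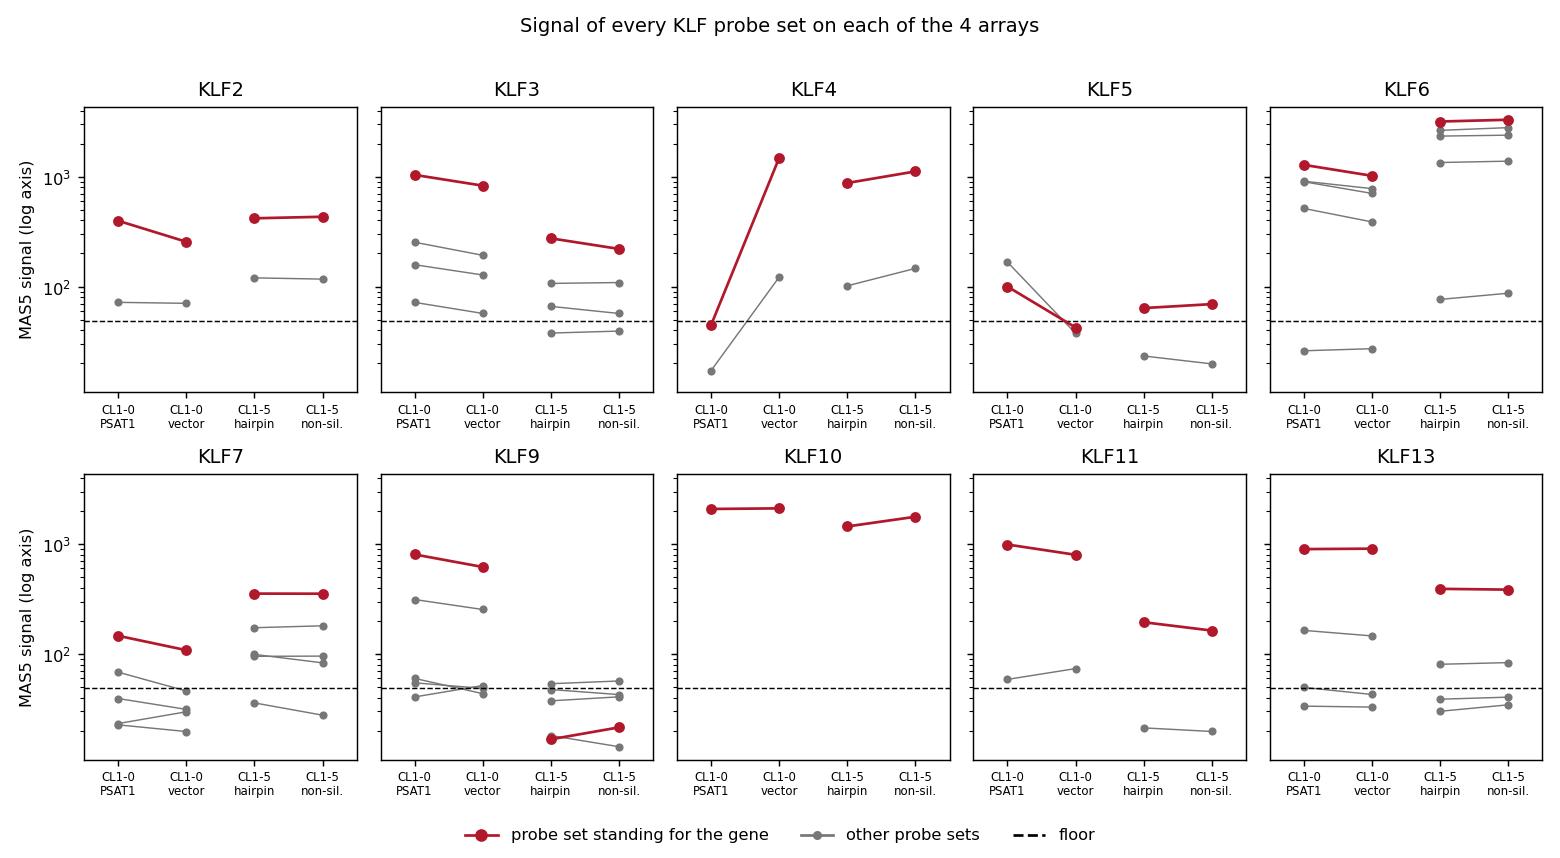
MAS5 signal (log axis) of all 32 KLF probe sets on the 4 arrays, 1 panel per gene, with the probe set that stands for the gene in red, the others in grey and the floor of 49.0 dashed; lines join the 2 arrays of one line. KLF4 drops below the floor on the CL1-0 PSAT1 array, and KLF9 is below it on both CL1-5 arrays by its brightest probe set.

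In CL1-0 with PSAT1, KLF4 fell to the floor while KLF5 appeared above it, and the other 8 members stayed under 2-fold. The KLF4 gene lies on chr9:107484852-107489769 (GRCh38.p14). Its brighter probe set read 44.55 with PSAT1, against 1486 with the control vector, at least 30.3-fold lower. Its dimmer probe set read 17.2 with PSAT1, against 122 with the control vector, at least 2.49-fold lower. Both KLF4 probe sets were thus above the floor on the control array and below it on the PSAT1 array, and the difference in their bounds follows from how far the control signal stood above the floor. Both KLF4 probe sets are of the type that can match several transcripts, so no KLF4 value is left when that type is left out.

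KLF5, on chr13:73054976-73077538, moved the other way. One probe set read 99.8 with PSAT1, against 42.4 with the control vector, at least 2.04-fold higher. The other read 167 with PSAT1, against 37.4 with the control vector, at least 3.40-fold higher. Both probe sets were under the floor with the control vector, so both folds are lower bounds. By the first probe set the gene was under 2-fold with quantile normalization (log2 ratio 0.79, where 1.67% of measured genes rose), with median centring (0.66, where 2.01% rose) and with a floor at the 65th percentile (0.72).

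Among the other activating members, KLF2, KLF6 and KLF7 read somewhat more with PSAT1 but under 2-fold. KLF2, a factor of endothelial and lymphocyte quiescence, read 397 with PSAT1, against 256 with the control vector, a log2 ratio of 0.64. Its second probe set read 71.8 with PSAT1 and 70.4 with the control vector (0.03), so the KLF2 probe sets disagreed. KLF6, a factor induced by injury and growth signals, had 4 probe sets with log2 ratios between 0.22 and 0.41, the brightest at 1282 with PSAT1 and 1019 with the control vector. KLF7, known from neuronal development, read 146 with PSAT1 and 108 with the control vector (0.44).

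No probe set of a repressing member gave a ratio or a bound of 2-fold. All 4 KLF3 probe sets had log2 ratios between 0.31 and 0.40, the brightest at 1039.8 with PSAT1 and 829 with the control vector. KLF9, a target of the glucocorticoid receptor, read 805 with PSAT1 and 619 with the control vector (0.38). KLF11 read 991 with PSAT1 and 799 with the control vector (0.31), but its dim second probe set went the other way, 58.7 with PSAT1 and 73.6 with the control vector (-0.33). KLF10, induced early by TGF-beta, read 2089 with PSAT1 and 2116 with the control vector. KLF13 read 900.4 with PSAT1 and 909 with the control vector.

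Counted over the 10 genes of the CL1-0 pair, 1 rose, beside 2.56% of all measured genes, and 1 fell, beside 1.01%. Their median log2 ratio was 0.33, against -0.01 over all measured genes, and 7 of 10 ratios were positive against 47.8% of all measured genes. The 5th and 95th percentiles of all measured genes were -0.54 and 0.79, and apart from KLF4 and KLF5 every member lay between them. A ratio at or above that of KLF2 was found in 7.92% of measured genes, and one at or above that of KLF7 in 14.4%. These counts describe genes picked with the same contrast in view.

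**Figure D3:**
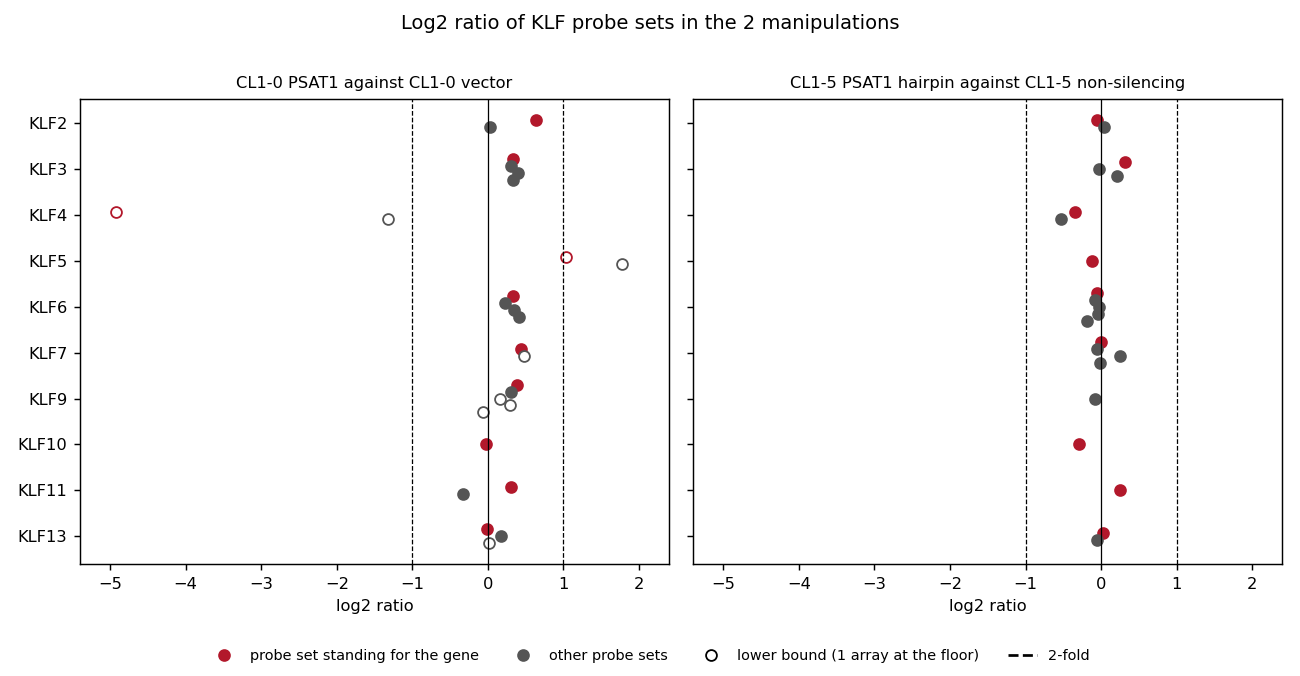
Log2 ratio of each measured KLF probe set in the CL1-0 pair (left) and the CL1-5 pair (right), with the probe set that stands for the gene in red, open circles for lower bounds and dashed lines at 2-fold. Both KLF4 probe sets lie left of the 2-fold line and both KLF5 probe sets right of it in CL1-0, and no probe set reaches 2-fold in CL1-5.

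In CL1-5 with the PSAT1 hairpin, no KLF member reached 2-fold by any probe set. The largest differences were those of KLF4, KLF3, KLF10 and KLF11, all small. KLF4 gave 877 with the hairpin and 1118 with the non-silencing control, a log2 ratio of -0.35. Its dimmer probe set gave 102 with the hairpin and 146 with the non-silencing control (-0.53). KLF4 therefore read less on the manipulated array in both lines, by a wide margin in CL1-0 and within 2-fold in CL1-5. These differences were not tested against each other.

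KLF3 gave 275 with the hairpin and 220.1 with the non-silencing control (0.32), while another of its probe sets read 107 with the hairpin and 109 with the non-silencing control (-0.03). KLF10 read 1448 with the hairpin and 1775 with the non-silencing control (-0.29). KLF11 read 194 with the hairpin and 163 with the non-silencing control (0.25). Its second probe set was below the floor on both CL1-5 arrays, at 21.2 with the hairpin and 19.7 with the non-silencing control.

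The remaining members of the CL1-5 pair lay close to equality. KLF2 read 418 with the hairpin and 432 with the non-silencing control, and its second probe set read 120 with the hairpin and 117 with the non-silencing control. KLF6 read 3183 with the hairpin and 3302 with the non-silencing control, and its 5 probe sets had log2 ratios between -0.19 and -0.03. KLF7 read 354.3 with the hairpin and 353.5 with the non-silencing control, and KLF13 read 391.5 with the hairpin and 385 with the non-silencing control. KLF5 read 63.7 with the hairpin and 69.2 with the non-silencing control (-0.12). The second KLF5 probe set read 23.3 with the hairpin and 19.8 with the non-silencing control, below the floor on both CL1-5 arrays. KLF9 was not measured in this pair by its brightest probe set, at 16.7 with the hairpin and 21.45 with the non-silencing control.

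Of the 9 measured genes 0 rose and 0 fell in CL1-5, beside 0.398% and 0.421% of all measured genes. No test was run, so no p-value stands behind these counts. The median log2 ratio of the 9 was -0.05, against 0.02 over all measured genes. KLF4 and KLF3 were inside the 5th and 95th percentiles of all genes, -0.42 and 0.38.

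The control arrays of the lines differed at more KLF genes than either manipulation did, and the scaling of the arrays bears on this comparison. The median log2 ratio over all measured genes was -0.49 in the CL1-5 non-silencing array against the CL1-0 vector array, 0.00 after quantile normalization and 0.10 after centring each array on its median. For the genes past 2-fold under all 3 scalings, the ratio of the deposited values is also given relative to the median of all genes. This comparison shares the CL1-0 vector array with the CL1-0 pair and the non-silencing array with the CL1-5 pair.

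KLF6 and KLF7 were higher in CL1-5 and KLF3, KLF9 and KLF11 lower, under all 3 scalings. KLF6 read 3302 in CL1-5 and 1019 in CL1-0, 3.24-fold higher, and lay 2.18 above the all-gene median on the log2 scale. Its 4 well-measured probe sets gave 3.24-fold to 3.59-fold. KLF7 read 354 in CL1-5 and 108 in CL1-0, 3.27-fold higher, and lay 2.19 above the median. One further KLF7 probe set was at least 3.68-fold higher, and another reached at least 1.95-fold. Quantile normalization gave log2 ratios of 2.36 for KLF6 and 2.17 for KLF7.

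By its brightest probe set KLF9 was above the floor in CL1-0 and below it in CL1-5. It read 21.45 in CL1-5 and 619 in CL1-0, at least 12.6-fold lower, and by a second probe set 40.7 in CL1-5 and 254 in CL1-0, at least 5.18-fold lower. Its other 3 probe sets read under 60 on all 4 arrays and gave no measured 2-fold difference. The KLF9 bound moved with the floor, to -4.85 on the log2 scale at the 25th percentile and -2.61 at the 65th, and the mean over its probe sets was -1.18. Relative to the all-gene median KLF9 lay at -3.17 on the log2 scale. KLF11 read 163 in CL1-5 and 799 in CL1-0, 4.90-fold lower as deposited, -1.81 relative to the all-gene median and -1.68 on the log2 scale under each of the other scalings. KLF3 read 220.1 in CL1-5 and 829 in CL1-0, 3.77-fold lower as deposited, -1.43 relative to the all-gene median, and -1.27 and -1.30 under quantile normalization and centring. A second KLF3 probe set was 3.39-fold lower as deposited and another (109 in CL1-5, 127.5 in CL1-0) was under 2-fold.

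For KLF13, KLF2, KLF4 and KLF10 the call or the sign turned on the scaling. KLF13 read 385 in CL1-5 and 909 in CL1-0, 2.36-fold lower as deposited, but its log2 ratio was -0.52 under quantile normalization and -0.62 under centring. KLF2 read 432 in CL1-5 and 256 in CL1-0, under 2-fold as deposited (0.76) but 2.53-fold and 2.59-fold higher under the same scalings. Its second probe set read 117 in CL1-5 and 70.4 in CL1-0, 0.73 as deposited. KLF4 had a log2 ratio of -0.41 as deposited and 0.31 and 0.20 under those scalings, while its dimmer probe set, at 146 in CL1-5 and 122 in CL1-0, had 0.26 as deposited. KLF10 had -0.25 as deposited and 0.48 and 0.36. KLF5 read 69.2 in CL1-5, with CL1-0 below the floor, a bound under 2-fold in all 3.

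As deposited, 2 of 10 members were higher in CL1-5, beside 5.25% of measured genes, and 4 were lower, beside 24.8%. Quantile normalization gave 3 higher, beside 9.43%, and 3 lower, beside 8.77%, and centring gave 3 and 3, beside 10.3% and 8.56%. The median log2 ratio of the members was -0.33 as deposited, 0.39 under quantile normalization and 0.28 under centring, against -0.49, 0.00 and 0.10 for all measured genes.

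The remaining probe sets of the members are given here. Of KLF6, 3 more probe sets followed the brightest one closely, with 910, 900 and 514 with PSAT1 against 779, 705 and 388 with the control vector in CL1-0. The same 3 gave 2644, 2344 and 1347 with the hairpin and 2799.7, 2391 and 1386 with the non-silencing control in CL1-5. The last KLF6 probe set was below the floor in CL1-0 (26.0 with PSAT1, 27.2 with the control vector) and above it in CL1-5 (76.4 with the hairpin, 87.0 with the non-silencing control). It thus shares the higher signal in CL1-5 but gives a bound under 2-fold.

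Of KLF7, 3 more probe sets were above the floor on both CL1-5 arrays, at 173, 99.0 and 95.1 with the hairpin and 180.4, 82.98 and 95.55 with the non-silencing control. In CL1-0 they read 39.3, 68.3 and 22.6 with PSAT1 and 31.3, 46.0 and 19.65 with the control vector, above the floor in 1 case. The KLF7 probe set below the floor on every array read at most 35.8. Of KLF9, the 3 dimmest probe sets read 54.6, 59.9 and 40.6 with PSAT1 and 48.6, 43.5 and 51.6 with the control vector in CL1-0. In CL1-5 they read 53.6, 18.1 and 47.4 with the hairpin and 56.7, 14.3 and 42.6 with the non-silencing control, all near or below the floor.

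Of KLF13, the second probe set read 164 with PSAT1 and 146 with the control vector in CL1-0, and 80.5 with the hairpin and 83.4 with the non-silencing control in CL1-5. Between the lines it gave a log2 ratio of -0.81, under 2-fold, where the brightest KLF13 probe set passed it. The other 2 KLF13 probe sets read at most 49.55 on any array. Of KLF3, one probe set was above the floor in CL1-0 only, at 71.8 with PSAT1 and 56.9 with the control vector, and read 37.7 with the hairpin and 39.3 with the non-silencing control in CL1-5. The remaining one read 66.0 with the hairpin and 56.9 with the non-silencing control in CL1-5, and 253 with PSAT1 and 193 with the control vector in CL1-0.

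**Figure D4:**
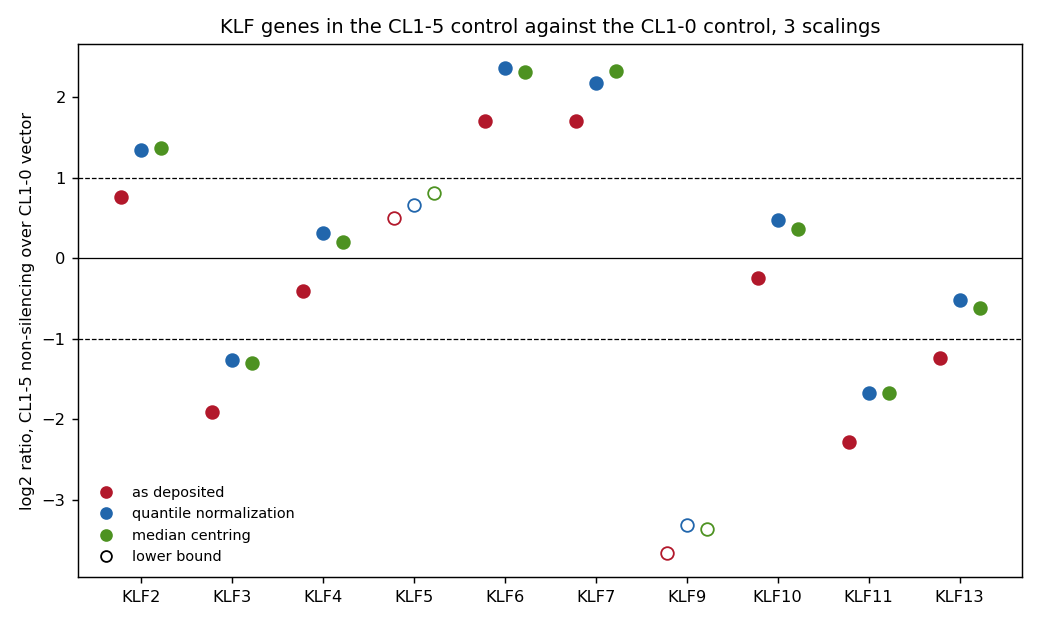
Log2 ratio of the CL1-5 non-silencing array over the CL1-0 vector array for each KLF gene, as deposited (red) and under 2 other scalings (blue, green), with open circles for lower bounds and dashed lines at 2-fold. KLF6 and KLF7 stay above the upper line and KLF3, KLF9 and KLF11 below the lower one in all 3, while KLF2 and KLF13 cross a line and KLF4 and KLF10 cross 0.

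**Figure D5:**
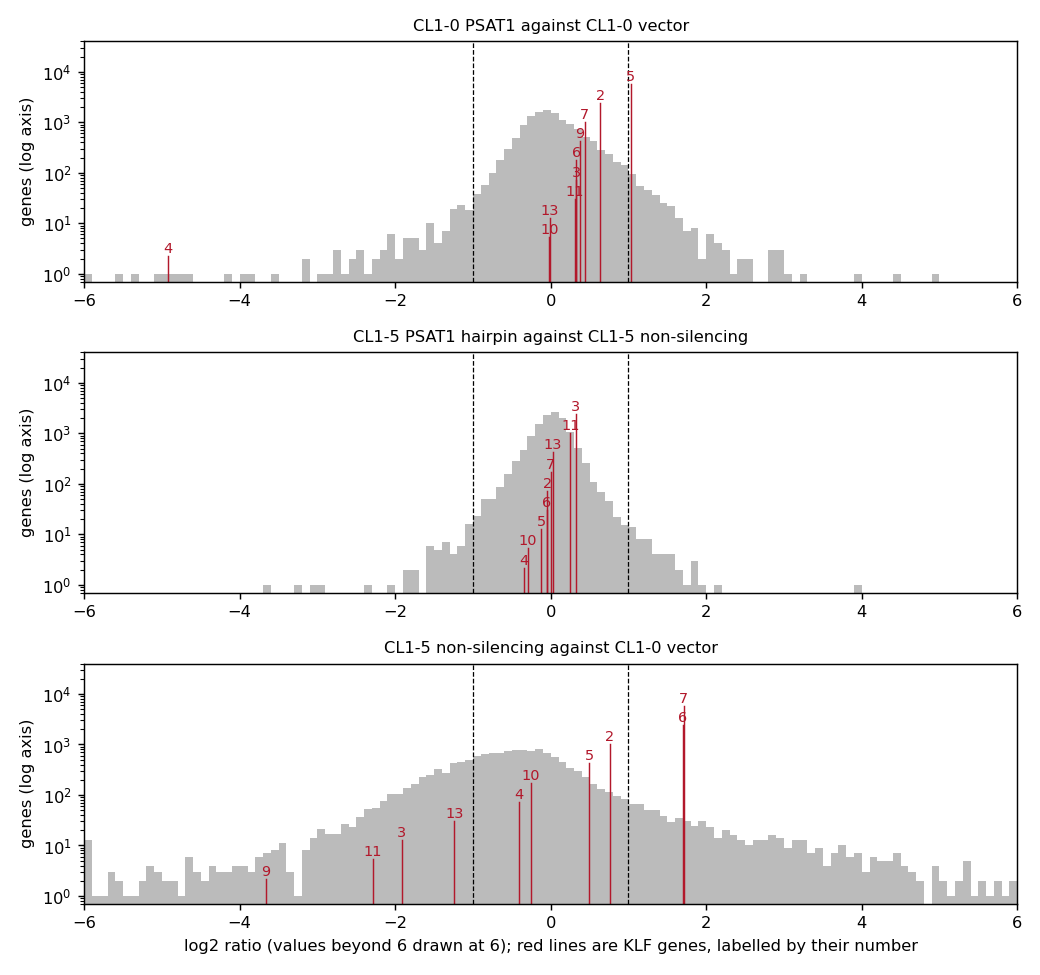
Number of measured genes (log axis) by log2 ratio in the 3 comparisons of deposited values, with red lines at the KLF genes, labelled by number, and dashed lines at 2-fold. KLF4 stands in the far left tail of the CL1-0 pair, all 9 measured members sit in the centre of the CL1-5 pair, and KLF9 lies in the left tail between the lines.

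The rest of the family and the related SP factors were read beside the members. Of 16 other KLF and SP genes, 15 had a named probe set. KLF1, KLF8, KLF14 and SP7 were below the floor on all 4 arrays. In CL1-0 with PSAT1, 0 of 9 measured genes rose, beside 2.56% of all measured genes, and 0 fell, beside 1.01%. Their median log2 ratio was 0.09, the largest being KLF15 at 160.5 with PSAT1 and 118 with the control vector (0.44). In CL1-5 with the hairpin, 0 of 9 rose, beside 0.398% of all measured genes, and 0 fell, beside 0.421%. The median was 0.07, with SP5 at 81.3 with the hairpin and 54.1 with the non-silencing control (0.59). SP1, the ubiquitous GC-box activator, read 241 with the hairpin and 324 with the non-silencing control (-0.43). Between the lines KLF15, SP1, SP2 and SP4, 4 of 11 measured, were lower in CL1-5 as deposited, beside 24.8% of all measured genes. SP1 read 324 in CL1-5 and 781 in CL1-0. Under quantile normalization or centring 0 of these 4 were 2-fold lower. KLF12, which like KLF3 recruits CtBP, read 87.2 in CL1-5 and 20.9 in CL1-0, a bound of 1.78-fold as deposited and of 1.01 on the log2 scale after quantile normalization. The other measured family members, KLF16, KLF17, SP2, SP3, SP4, SP6 and SP8, had log2 ratios between -0.03 and 0.33 in CL1-0 and, where measured, between 0.00 and 0.16 in CL1-5.

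The cofactors that KLF proteins recruit were read in the same way. All 13 were measured, and 0 rose or fell in CL1-0 or in CL1-5, with medians of 0.03 and -0.02. Among all measured genes 2.56% rose and 1.01% fell in CL1-0, and 0.398% and 0.421% did so in CL1-5. Counts of 0 in 13 are near those shares. SIN3A, the scaffold bound by KLF9, KLF10, KLF11 and KLF13, had the largest ratio in CL1-0, at 1014.1 with PSAT1 and 689 with the control vector (0.56). EP300, the p300 acetyltransferase, had the largest in CL1-5, at 312 with the hairpin and 417 with the non-silencing control (-0.42). Between the lines 5 of 13 were lower in CL1-5 as deposited, beside 24.8% of all measured genes, and 0 were higher, beside 5.25%. Quantile normalization and centring each left 3 lower, beside 8.77% and 8.56%. These were EP300, CREBBP and KAT2A, all acetyltransferases, with EP300 at 417 in CL1-5 and 1869 in CL1-0.

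Ubiquitin enzymes reported to act on KLF proteins had 8 measured genes and 0 past 2-fold in either manipulation. SIAH1, a ubiquitin ligase reported to act on KLF10, had the largest ratio, at 4207.5 with PSAT1 and 2581 with the control vector in CL1-0 (0.71). Between the lines SMURF2 was higher in CL1-5 under all 3 scalings (2289 in CL1-5 and 911 in CL1-0 as deposited). It was the 1 of 8 that was higher as deposited, beside 5.25% of all measured genes. As deposited 5 of 8 were lower, beside 24.8% of all measured genes. These 5, among them FBXW7 at 162 in CL1-5 and 439 in CL1-0, were under 2-fold with the other scalings.

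Pathways that induce KLF genes were set beside them. In CL1-0, 2.56% of all measured genes rose and 1.01% fell, and in CL1-5 0.398% and 0.421% did so. Counts of 0 in the short lists below are near those shares. The ERK5 and MEF2 pathway, which drives KLF2 and KLF4 in endothelial cells, had 0 genes past 2-fold among 7 measured in CL1-0 and 6 in CL1-5. The TGF-beta list had 0 among 11 in each manipulation, with SMAD7, an inhibitor of the pathway, at 84.5 with PSAT1 in CL1-0 against a control below the floor, at least 1.72-fold, and the receptor TGFBR2 at 317.5 with the hairpin and 591 with the non-silencing control in CL1-5 (-0.90). The glucocorticoid receptor list had 0 among 4 in CL1-0 and 5 in CL1-5. Its FKBP5 read 1316 with the hairpin and 958 with the non-silencing control (0.46).

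Between the lines, 5.25% of all measured genes were higher in CL1-5 as deposited and 24.8% lower. The TGF-beta list had 3 of 11 higher and 3 lower, the glucocorticoid list 2 of 4 and 1, and the ERK5 and MEF2 list 0 of 7 and 2. SMAD3 (911 in CL1-5 and 185 in CL1-0) and TGFBR2 were higher. The matrix protein TGFBI was at least 70.2-fold higher, and SKIL, a repressor of SMAD signalling, was 8.56-fold lower. These 4 calls held under all 3 scalings, and the other TGF-beta genes lower as deposited were under 2-fold with the other scalings. SGK1 and DUSP1, both induced by glucocorticoids, were 13.9-fold and 5.26-fold higher in CL1-5, while FKBP5 was 2.77-fold lower as deposited and under 2-fold with the other scalings. NR3C1, the receptor itself, read 2788 in CL1-5 and 1476 in CL1-0, 0.92 on the log2 scale as deposited and 1.60 after quantile normalization.

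Immediate early genes, which like several KLF members respond fast to growth signals, had positive ratios in 1 of 11 measured cases in CL1-0, against 47.8% of all measured genes. In CL1-0 with PSAT1, 2 of 11 measured immediate early genes fell, beside 1.01% of all measured genes, and 0 rose, beside 2.56%, with a median of -0.18. JUN read 237.5 with PSAT1 and 498 with the control vector, 2.10-fold lower, and FOS read 61.7 with PSAT1 and 127 with the control vector, 2.06-fold lower. EGR1 (579 with PSAT1, 1104 with the control vector, -0.93) and JUNB (223 with PSAT1, 416 with the control vector, -0.90) were under 2-fold as deposited. In CL1-5 with the hairpin 1 of 10 fell, beside 0.421% of all measured genes. This was EGR1, at 222 with the hairpin and 791 with the non-silencing control, 3.57-fold lower. Under quantile normalization 2 of 11 fell in CL1-0, beside 133 of 12857 genes, and 2 of 10 in CL1-5, beside 65 of 13170. Under centring 3 of 10 fell in CL1-0, beside 143 of 12332 genes, and 2 of 10 in CL1-5, beside 53 of 13918. FOS read 36.6 with the hairpin and 96.6 with the non-silencing control, a bound of -0.98 as deposited and of -1.18 and -1.30 under quantile normalization and centring.

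Among genes reported as targets of KLF members, 1 of those measured passed 2-fold in each manipulation. Of 16, 13 had a named probe set and 7 were measured in CL1-0 and 9 in CL1-5. The 1 fall in CL1-0, beside 1.01% of all measured genes, and the 1 rise in CL1-5, beside 0.398%, were both CCL5. This chemokine is activated by KLF13 in T lymphocytes. CCL5 read 25.2 with PSAT1 and 2055 with the control vector in CL1-0, at least 41.9-fold lower, while KLF13 was level in that pair, and it read 326 with the hairpin and 159.5 with the non-silencing control in CL1-5, 2.04-fold higher. CDKN1A, the growth arrest gene activated by KLF4 and KLF6, read 67.95 with PSAT1 and 83.8 with the control vector in CL1-0 (-0.30), and 427 with the hairpin and 527 with the non-silencing control in CL1-5 (-0.30). CCND1, the G1 cyclin, read 1043 with PSAT1 and 1039 with the control vector in CL1-0. CDH1, FGFBP1, S1PR1 and MAOB were below the floor on all 4 arrays. Between the lines CDKN1A, THBD and LGALS3, 3 of 9 measured, were higher in CL1-5 as deposited, beside 5.25% of all measured genes. CDKN1A read 527 in CL1-5 and 83.8 in CL1-0, and LGALS3, which KLF3 represses, was at least 31.8-fold higher. CCL5, ODC1 and BIRC5, also 3 of 9, were lower in CL1-5 as deposited, beside 24.8% of all measured genes. CCL5, at 159.5 in CL1-5 and 2055 in CL1-0, was 12.9-fold lower and stayed lower under quantile normalization (-3.04) and centring (-3.07). ODC1 and BIRC5 were 2.50-fold and 2.06-fold lower as deposited and under 2-fold with both other scalings.

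The genes with patterns nearest to KLF4 and KLF5 were found by the Euclidean distance of the 4 log2 signals after subtracting each gene's mean, among 9134 genes whose brightest array reached the 75th percentile. Nearest to KLF4 were IFIT3 (distance 1.14), RIGI (1.24) and DSG2 (1.24). IFIT3 read 9.44 with PSAT1 and 1329 with the control vector in CL1-0, and 1639 with the hairpin and 699.5 with the non-silencing control in CL1-5. With PSAT1, IFIT3 and DSG2 were below the floor and RIGI was at 72.1, while all 3 were above it on the other arrays. IFIT3 and RIGI gave more signal with the hairpin than with the non-silencing control, where KLF4 and DSG2 gave less. Nearest to KLF5 were LOC105379426 (0.07), FCGRT (0.12) and ZNF407-AS1 (0.14), with FCGRT at 426 with PSAT1 and 192 with the control vector in CL1-0. The likeness rests on 4 arrays and on signals set to the floor where they were below it: KLF5 on the CL1-0 vector array, and KLF4, IFIT3 and DSG2 on the CL1-0 PSAT1 array. The distances therefore hold for floored values only.

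Markers of other cells were read beside the KLF4 fall. The fibroblast list had 3 of 8 genes above the floor with PSAT1 and 4 with the control vector in CL1-0, and its summed signal was 437 with PSAT1 and 786 with the control vector. COL3A1, at 27.4 with PSAT1 and 312 with the control vector, was the 1 fibroblast gene of 4 measured that fell, beside 1.01% of all measured genes. COL1A2, DCN, LUM and PDGFRA were below the floor on all 4 arrays. The endothelial list had 2 of 6 above the floor with PSAT1 and 3 with the control vector, summing to 215 with PSAT1 and 259 with the control vector, and the immune and blood list had 1 of 5, HBB, on every array. The epithelial list summed to 912 with PSAT1 and 1156 with the control vector. In it CLDN4, 1 of 5 measured, fell, at least 2.29-fold as deposited but under 2-fold with centring. Between the lines the epithelial sum was 7076 in CL1-5 and 1156 in CL1-0, mostly KRT18 (5308 in CL1-5, 757 in CL1-0) and KRT8 (1271 in CL1-5, 77.8 in CL1-0). The fibroblast sum was 510.0 in CL1-5 and 786 in CL1-0, and COL3A1 within it read 16.35 in CL1-5 and 312 in CL1-0. The part of these differences in the KLF results was not tested.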

How the data were processed

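For each array the authors deposited 1 column of linear intensity, computed per probe set with MAS5, per the submitters' processing notes; its version, any scaling target and detection calls are not given in the sources used here. Biotinylated cRNA came from 6 ug of total RNA, per the labels. Gene names came from the platform's annotation of probe sets (41097 with 1 gene, 1801 with several, 11777 with none), and symbols were updated by gene identifier for 41043. Probe sets of Y-chromosome and X-inactivation genes (59) and 62 control probe sets were left out.

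Signals were set to a floor, the pooled median of 49.0, and log2 transformed in Python 3.11.15 with pandas 2.3.3. The probe set of highest mean log2 signal stands for its gene. The functions were tested on simulated data. With 1 array per group no test was run, and the number of arrays limits the precision. The lists hold 151 genes, of which 14 lack a named probe set and are not analysed here. The members and lists were chosen with earlier results of these data known. Every member probe set is described, and of each other list up to 4 genes with the largest ratios per comparison could be named. CCND1 and SOX2 in CL1-0 and MYC, ODC1 and BIRC5 between the lines were named after seeing their values. Results were recomputed under 6 alternatives. Scaling was changed by quantile normalization or by median centring, and the floor was set at the 25th or 65th percentile. The others were the mean over probe sets and leaving out probe sets that match several transcripts. For median centring, each array's median was taken over brighter probe sets only, those that passed the floor on every array. Promoter sequence is from RefSeq, GRCh38.p14.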

Additional observations from a re-analysis of the deposited data

How the results depend on the processing

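No paired analysis was possible because each group has 1 array. In CL1-0 with PSAT1, KLF4 stayed lower in every alternative that kept it, with log2 ratios from -5.06 (floor at the 25th percentile) to -3.12 (mean over probe sets). Without probe sets that match several transcripts, KLF4 had none left and 0 of 7 members fell. KLF5 was the 1 member that rose, and 0 rose under quantile normalization, median centring and the 65th percentile floor, while the mean over probe sets gave KLF5 a log2 ratio of 1.40. Over all genes of that pair, 337 rose, against 215 under quantile normalization and 166 with the mean over probe sets, and 133 fell, against 79 with that mean. In CL1-5 with the hairpin no alternative brought a member to 2-fold, and of all genes 54 fell, against 32 with the mean over probe sets. Between the lines, 720 genes were higher and 3402 lower in CL1-5 as deposited, 1292 and 1201 under quantile normalization, and 1440 and 1195 under centring. The median of the members was -0.33, against 0.39 and 0.28 under those scalings and 0.73 over the 5 members left without probe sets that match several transcripts, where 2 were lower in place of 4. For single members, 126 values moved by less than the SD over a gene's own probe sets (0.289 in CL1-0, 0.175 in CL1-5 and 0.514 between the lines) and 34 by more. That SD describes disagreement between probe sets read on the same arrays. It holds no spread between replicate samples, which these arrays do not have.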

Other observations

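Partners of KLF4 in pluripotent cells were read as a further group, and they differed most between the lines. Of 7 genes, 6 had a named probe set and 5 were measured between the control arrays, where 4 were lower in CL1-5 under all 3 scalings and 0 higher. Of all measured genes, 24.8% were lower and 5.25% higher as deposited, 8.77% and 9.43% under quantile normalization, and 8.56% and 10.3% under centring. SOX2 was below the floor on both CL1-5 arrays and read 8851 with the control vector in CL1-0, at least 180.6-fold lower in CL1-5. LIN28A, an RNA-binding protein that blocks let-7 maturation, was at least 38.8-fold lower in CL1-5, its relative LIN28B 7.73-fold and SALL4 8.56-fold. MYC read 2109.8 in CL1-5 and 3275 in CL1-0, under 2-fold. In CL1-0 with PSAT1, 1 of 5 measured genes fell, beside 1.01% of all measured genes. This was LIN28A, at 727 with PSAT1 and 1899.6 with the control vector, 2.61-fold lower. LIN28B read 3190.3 with PSAT1 and 5858 with the control vector (-0.88), and SOX2 read 9327 with PSAT1 and 8851 with the control vector (0.08). In CL1-5 with the hairpin, 0 of 3 measured genes reached 2-fold, where 0.398% of all measured genes rose and 0.421% fell.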
